A study of Homo sapiens with 9 samples.

Results

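Matrix metalloproteinases (MMPs), the tissue inhibitors of metalloproteinases (TIMPs), the ADAMTS proteinases and the ADAMTS-like proteins were examined in TC32, an established Ewing sarcoma cell line driven by the EWS::FLI1 fusion. Members were taken by symbol alone, as every row of the deposited table named MMP, TIMP, ADAMTS or ADAMTSL followed only by a number, which gave 50 of 60603 genes: 22 MMP, 4 TIMP, 19 ADAMTS and 5 ADAMTSL genes. RNA was sequenced at 30 h from 3 libraries of each of 3 groups: siEF, given an siRNA against the junction of EWS::FLI1, siNEG, the siRNA control by its label, whose siRNA is not described in the sources used here, and Media (here media), for which the labels name no agent of its own. The labels give plating on siRNA, a wild-type genotype and 1 batch for all 9 libraries, and all come from a single cell line, so the P values measure the spread between cultures of TC32 and not between tumors. The comparison of siEF with siNEG addresses which of these genes EWS::FLI1 induces (lower with silencing) or represses (higher with silencing). A single siRNA against the fusion was used at a single time. Direct effects of the fusion, indirect changes and other effects of this siRNA were not separated.

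MMPs are zinc endopeptidases that are made as inactive zymogens and that together cleave most proteins of the extracellular matrix. Some are secreted, and the membrane-type MMPs stay anchored at the cell surface, where MMP14 activates the MMP2 zymogen in a complex that includes TIMP2. TIMPs bind the active site and block it. ADAMTS proteinases carry thrombospondin repeats and cut proteoglycans, procollagens, COMP or von Willebrand factor, while the ADAMTS-like proteins share the thrombospondin repeats, lack the proteinase domain and associate with microfibrils. MMPs are known for their part in tumor invasion and bone remodeling.

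EWS::FLI1 binds the ETS core GGAA, singly or in repeats. For AP-1, a partner factor the study examined, TGANTCA was searched, a pattern wider than the AP-1 sequence TGAGTCA. Promoters were available from RefSeq (build GRCh38.p14, 250 bases before to 50 after the gene start) for 31 of the 50 members. The sequence before the start is shown, 5′ to 3′ on the gene's strand, for 3 members called higher with silencing that were among the most abundant per kilobase in siEF (MMP11, TIMP3 and MMP14) and for the member of the chromosome 11 MMP cluster that rose (MMP10). Bases that lie in an annotated exon of the gene were left off. Capitals mark GGAA on either strand (written TTCC on the other strand), TGANTCA and TATAAA.
MMP11: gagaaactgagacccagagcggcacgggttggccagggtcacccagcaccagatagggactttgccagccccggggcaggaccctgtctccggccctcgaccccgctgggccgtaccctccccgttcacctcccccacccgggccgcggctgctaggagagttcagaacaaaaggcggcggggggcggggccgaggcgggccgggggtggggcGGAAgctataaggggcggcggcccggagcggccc
TIMP3: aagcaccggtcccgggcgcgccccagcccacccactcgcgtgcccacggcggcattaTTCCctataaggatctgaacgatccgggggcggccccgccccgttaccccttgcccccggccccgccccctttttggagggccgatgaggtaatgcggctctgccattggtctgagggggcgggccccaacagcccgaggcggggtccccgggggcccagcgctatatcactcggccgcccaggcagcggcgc
MMP14: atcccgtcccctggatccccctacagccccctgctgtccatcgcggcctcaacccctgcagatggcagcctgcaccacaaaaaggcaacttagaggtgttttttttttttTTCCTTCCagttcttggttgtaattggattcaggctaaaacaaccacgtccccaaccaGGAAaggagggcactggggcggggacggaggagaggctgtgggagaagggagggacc
MMP10: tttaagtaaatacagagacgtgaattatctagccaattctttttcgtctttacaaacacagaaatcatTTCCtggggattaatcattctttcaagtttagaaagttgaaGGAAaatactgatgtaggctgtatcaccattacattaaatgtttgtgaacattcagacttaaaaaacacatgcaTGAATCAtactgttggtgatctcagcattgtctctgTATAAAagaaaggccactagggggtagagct
The RefSeq start used for MMP11 lies inside the GENCODE gene, downstream of its first annotated start. The regions are chr22:23772599-23772845 on the plus strand for MMP11, chr22:32801455-32801704 on the plus strand for TIMP3, chr14:22836335-22836559 on the plus strand for MMP14 and chr11:102780629-102780878 on the minus strand for MMP10. The MMP11 and TIMP3 sequences were 73.3% and 72.4% G and C with 1 GGAA each, whereas that of MMP10 was 34.4% G and C and held TGAATCA and TATAAA, which begin 67 and 31 bases before the start. MMP14 was the only member called higher, among the 11 with a promoter in the table, that held 2 GGAA in a row, and TIMP1 was the other member with such a pair. Over all 35116 promoters of this length, 95.5% held GGAA on either strand, 3.67% held 2 in a row, 7.71% held TGANTCA and 7.33% held TATAAA. The pattern TGANTCA, which as a pattern reads the same on both strands, was found in MMP10, MMP7, MMP20 and ADAMTS12. Only MMP7 held the AP-1 sequence TGAGTCA, and the others held TGAATCA. MMP7 and MMP20 had 2 counts and 0 counts over all 9 libraries. A match of letters is a description of the window and not a measured binding site.

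The values are expected counts per gene, estimated by RSEM, with totals of 20727706 to 30087498 per library in siEF, 30351393 to 33134581 in siNEG and 28702350 to 31313067 in media. FLI1, the 3′ partner, had 1063, 725 and 1148 counts in siEF and 1537, 1646 and 1497 in siNEG (log2 fold change -0.35, SE 0.06). Counts per gene cannot tell reads of the fusion from reads of an unfused FLI1 gene. The paper states that these cells do not express FLI1 itself, and it reports that qPCR showed the silencing. What set the size of the change in FLI1 counts was not tested. Levels below are CPM, the counts relative to the TMM-scaled library size. NR0B1, a known target that the fusion induces, was at 17.6 ± 2.35 CPM in siEF and 137 ± 4.98 CPM in siNEG (SD, n = 3 each). The 10 most abundant genes took 12.3% to 12.9% of counts in siEF and 5.78% to 6.62% in the other libraries. Mitochondrial genes took 3.16% to 4.55% in siEF, 1.53% to 3.53% in siNEG and 1.65% to 3.17% in media. Of the markers taken to check the cell line, the 6 of Ewing sarcoma were present in every group, with a summed level of 381 to 391 CPM in siEF and 747 to 760.5 CPM in siNEG. The 4 epithelial markers, mainly KRT18, summed to 606 to 655 CPM in siEF and 103 to 108 CPM in siNEG, the 5 leukocyte markers to at most 1.76 CPM and the 3 endothelial markers to at most 5.19 CPM in any library, with 3 of the 5 leukocyte markers at 0 in siEF. Single markers moved apart within these sums. From siNEG to siEF, mean TEK went from 0.206 to 2.23 CPM, CDH5 from 0.210 to 0.663 and PECAM1 from 3.69 to 1.60. Of the leukocyte markers, CSF1R went from 0.184 to 0.743 CPM and CD14 from 0.496 to 0.820. Of the epithelial markers, KRT8 went from 1.59 to 10.8 CPM and CDH1 from 0 to 0.907. EPCAM went from 0.0400 to 0.406 CPM and was at 0.399 CPM in media. CD99 was higher in siEF, at 189 CPM beside 161 in siNEG, while the other Ewing sarcoma markers were lower. The part of these differences in the results was not tested. In bulk RNA, fewer cells that express a gene and less RNA per cell cannot be told apart.

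Genes of all 4 families were called higher in siEF than in siNEG, and no tested member fell past the cut-offs against siNEG. Of the 50 members, 27 passed the filter on low counts and were tested with edgeR's quasi-likelihood test over all 16093 genes that passed. A gene was called at a Benjamini-Hochberg adjusted P under 0.01 with a log2 fold change beyond 1. Of the 27, 16 were called higher in siEF than in siNEG (all genes tested: 17.1%) and 0 lower (all genes tested: 11.7%). At an unadjusted P under 0.05, 23 of the 27 differed, and with no cut-off on the fold change 19 were higher and 1 was lower at the same adjusted P. The shares of all genes tested at these looser settings are not given here, so these counts have no background beside them. The 16 were 8 of 12 tested MMP, 1 of 4 TIMP, 5 of 8 ADAMTS and 2 of 3 ADAMTSL genes. MMP19, MMP24, MMP28, ADAMTS17 and ADAMTSL3 passed the filter only with the help of their siEF libraries, which alone favors a difference, and 4 of these 5 (all but ADAMTSL3) were called. Of the other 22 tested members, 12 were called higher. The share of all genes that passed the filter without such help is not given here, so this count has no like background. When at least 10 counts were asked of every library, 8 of 16 tested members were called higher, beside 14.1% of all genes tested. The 3 siEF libraries lay above the 3 siNEG libraries for 21 of the 27 (all genes tested: 39.8%) and below them for 2 (all genes tested: 37.1%). The median log2 fold change of the 27 was 1.37, beside 0.05 for all genes tested. The 27 here include the 5 members that passed the filter only with the help of siEF.

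**Figure D1:**
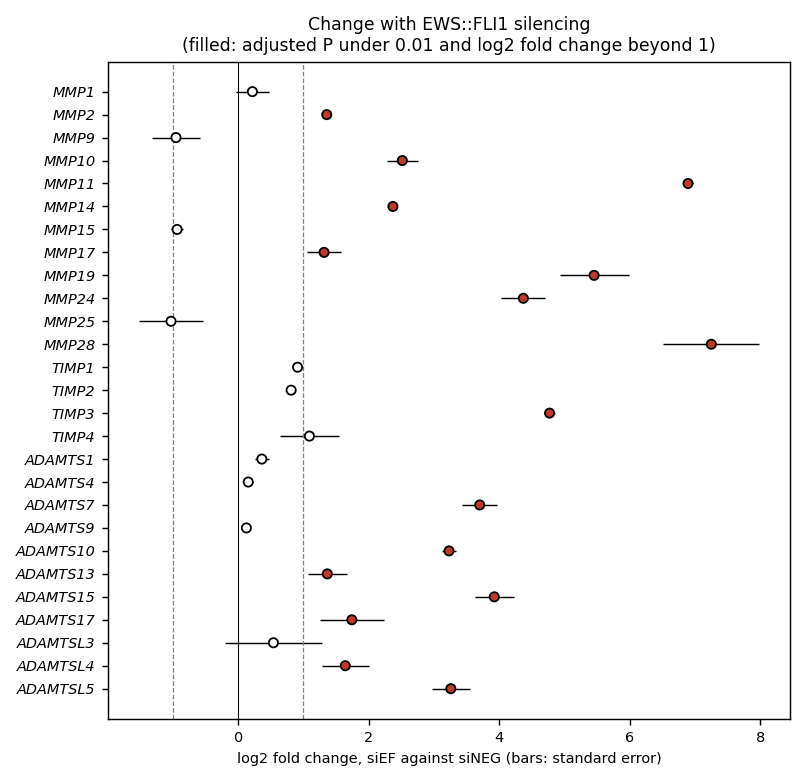
Log2 fold change of siEF against siNEG for each of the 27 tested members, with its standard error (bars) and the cut-offs at -1 and 1 (dashed). The 16 filled points are the members called higher; MMP28 and MMP11 lie farthest to the right, and MMP9, MMP15 and MMP25 lie left of 0 and were not called.

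The stromelysins MMP11 and MMP10 rose. MMP11 (stromelysin-3) is activated inside the cell by furin, unlike most secreted MMPs. MMP11 (ENSG00000099953.10, chromosome 22, 23768226 to 23784316 in GRCh38) was read 9244, 7273 and 9797 times in replicates 1, 2 and 3 of siEF. In siNEG it was read 90, 92 and 96 times, and in media 84, 107 and 73 times. The siEF libraries were all high and far apart from both controls, which overlapped each other. MMP11 rose from a siNEG level of 2.88 ± 0.185 CPM (SD, n = 3) to 342 ± 12.3 CPM (SD, n = 3) in siEF, a 119-fold rise with a log2 fold change of 6.89 (± 0.08 SE, edgeR adjusted P = 5.1e-19). MMP10 (stromelysin-2), a broad-spectrum secreted MMP, had 141, 87 and 125 counts in siEF and 21, 35 and 21 in siNEG. Its siEF libraries lay above both controls, which overlapped each other, and its log2 fold change was 2.52 (± 0.23 SE, edgeR adjusted P = 4.9e-08). MMP3 (stromelysin-1) had at most 1 count in any library and was not tested.

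The gelatinases, which cut denatured collagen and basement membrane, split into MMP2, which was called, and MMP9, which was not. MMP2 (ENSG00000087245.13, chromosome 16, 55389700 to 55506691) was read 7516, 5835 and 8480 times in siEF. In siNEG it was read 3296, 3775 and 3606 times, and in media 2837, 2770 and 2312 times. All 9 deposited counts of MMP2 were not whole, so it could share reads with other genes and its level is uncertain. Exons of ENSG00000279030 on the same strand cover 3.70% of the MMP2 exon bases, and their part in the counts was not tested. The 3 groups did not overlap after scaling, with media lowest and siEF highest. MMP2 rose with silencing from 110 ± 5.79 CPM (SD, n = 3) to 283 ± 9.92 CPM (SD, n = 3), a log2 fold change of 1.36 (± 0.06 SE, edgeR adjusted P = 1.21e-12). MMP9 (ENSG00000100985.7, chromosome 20, 46008908 to 46016561) was read at 17, 17 and 14 counts in siEF, 25, 51 and 43 in siNEG and 17, 26 and 33 in media. The 3 groups overlapped, and neither comparison with siEF passed the cut-offs. Its log2 fold change was -0.95 (± 0.37 SE, edgeR adjusted P = 0.031) against siNEG and -0.41 (± 0.39 SE, edgeR adjusted P = 0.349) against media. Without siNEG replicate 1, the lowest of that group, MMP9 was called lower, with a log2 fold change of -1.22 (edgeR adjusted P = 0.0094). Exons of SLC12A5-AS1 on the opposite strand cover 18.4% of the MMP9 exon bases.

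Of the 6 membrane-type MMPs, 3 were called higher with silencing, and 1 (MMP15) was lower in every siEF library than in every library of both controls. MMP14 (MT1-MMP, ENSG00000157227.13, chromosome 14, 22836560 to 22849041), the activator of MMP2 and a collagenase in its own right, was read 12517, 9118 and 13774 times in siEF. In siNEG it was read 2722, 2971 and 2851 times, and in media 3216, 3105 and 2635 times. All siEF libraries stood well above all controls. MMP14 rose from 88.3 ± 2.78 CPM (SD, n = 3) to 457 ± 13.4 CPM (SD, n = 3), a log2 fold change of 2.37 (± 0.05 SE, edgeR adjusted P = 7.49e-16). MMP24 (MT5-MMP), best known from the nervous system, had 101, 63 and 109 counts in siEF, 7, 6 and 3 in siNEG and 7, 7 and 4 in media. It was near the limit of detection in both controls and rose by a log2 fold change of 4.37 (± 0.34 SE, edgeR adjusted P = 4.6e-09). MMP24 passed the filter on low counts only with the help of its siEF libraries, which favors a call. Exons of MMP24OS on the opposite strand cover 18.4% of its exon bases, and the strand setting of the counting is not given in the sources used here, so reads of genes that overlap in this way cannot be told apart.

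MMP15 (MT2-MMP, chromosome 16, 58025754 to 58046901) went the other way. It had 387, 333 and 393 counts in siEF, 887, 934 and 863 in siNEG and 1086, 1104 and 791 in media. Every siEF library lay below every control library. The siEF level was 14.6 ± 1.51 CPM (SD, n = 3) against 27.7 ± 0.256 CPM (SD, n = 3) in siNEG, or 52.3% of it. The log2 fold change of -0.94 (± 0.10 SE, edgeR adjusted P = 1.68e-07) fell short of the cut-off against siNEG and passed it against media, at -1.17 (± 0.10 SE, edgeR adjusted P = 8.55e-09). Without siEF replicate 2, the shallowest library, MMP15 was also called lower against siNEG, with a log2 fold change of -1.02. Members of 1 subfamily, MMP14 and MMP15, thus had log2 fold changes of opposite sign, which kept their signs in all alternatives run.

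MMP17 (MT4-MMP), which is held by a GPI anchor, had 56, 40 and 56 counts in siEF, 29, 21 and 26 in siNEG and 48, 51 and 36 in media. Its rise depended on the control: the log2 fold change was 1.32 (± 0.26 SE, edgeR adjusted P = 0.000241) against siNEG and 0.41 (± 0.25 SE, edgeR adjusted P = 0.145) against media. MMP25 (MT6-MMP), the other GPI-anchored member, had 5 to 7 counts in siEF, 10 to 21 in siNEG and 4 to 7 in media, and no comparison passed the test. MMP25-AS1 covers 30.6% of its exon bases on the opposite strand. MMP16 (MT3-MMP) had 0 counts in siEF, 0 to 3 in siNEG and 1 to 5 in media and was not tested.

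MMP28 (epilysin) and MMP19, a pair of secreted MMPs outside the classical groups, were near 0 in the controls. MMP28 had 56, 59 and 52 counts in siEF, 0, 0 and 1 in siNEG and 0, 4 and 1 in media. Over the group, 167 counts stood against 1, a ratio of 209 with a 95% interval of 37.0 to 8310 that covers counting error only. MMP19 had 57, 34 and 65 counts in siEF, 0, 2 and 2 in siNEG and 5, 3 and 3 in media, a ratio of 48.8 (95% interval 18.7 to 181.5, counting error only). Both were called (edgeR adjusted P = 1.5e-07 and 8.38e-08), with no overlap between siEF and either control. Both passed the filter only with the help of their siEF libraries, which alone favors a difference, so neither value is separate support. Exons of the pseudogene TMEM198B on the opposite strand cover 17.6% of the MMP19 exon bases.

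MMP1, the interstitial collagenase, lies beside MMP10 in a cluster of 9 members on chromosome 11 (102520508 to 102955732), all on the minus strand. MMP1 had 48, 49 and 42 counts in siEF, 49, 58 and 46 in siNEG and 49, 37 and 45 in media, so the groups overlapped (log2 fold change 0.22, ± 0.26 SE, edgeR adjusted P = 0.453). The other 7 cluster members, MMP7, MMP20, MMP27, MMP8, MMP3, MMP12 and MMP13, had 5 counts or fewer over all 9 libraries. MMP10 was the 1 member of this cluster called, and its tested neighbor MMP1 was not. Whether their changes differ was not tested.

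**Figure D2:**
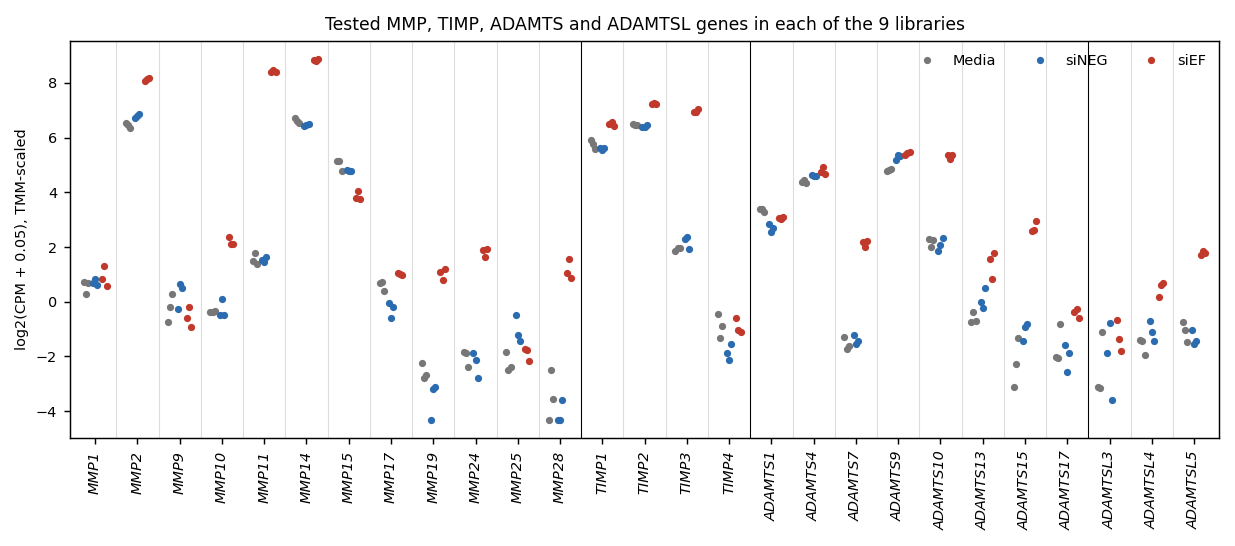
Level of each tested member in each library, as log2 of CPM plus 0.05, for the 3 media, 3 siNEG and 3 siEF libraries (1 point each). The siEF points of MMP11, MMP14, MMP2 and TIMP3 lie apart above both controls, those of MMP15 lie below, and MMP1, MMP9 and ADAMTSL3 overlap.

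All 4 TIMP genes were tested, and every siEF library lay above every siNEG library for each. TIMP3 (ENSG00000100234.11, chromosome 22, 32801705 to 32863041), the TIMP that binds the matrix and that also inhibits ADAM and ADAMTS proteinases, had 3391, 2523 and 3857 counts in siEF. It had 155, 175 and 117 counts in siNEG and 110, 121 and 109 in media. These siEF values were high in all 3 replicates. TIMP3 rose from 4.60 ± 0.748 CPM (SD, n = 3) to 126 ± 5.31 CPM (SD, n = 3), 27.3-fold, with a log2 fold change of 4.77 (± 0.09 SE, edgeR adjusted P = 1.06e-16).

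TIMP1, a broad inhibitor of soluble MMPs, had 2509, 1953 and 2501 counts in siEF, 1537, 1594 and 1532 in siNEG and 1865, 1723 and 1374 in media. TIMP2, the partner of MMP14 and MMP2, had 4110, 3110 and 4335 counts in siEF, 2636, 2871 and 2748 in siNEG and 2757, 2777 and 2494 in media. Both were at a higher level in siEF by less than the cut-off, with log2 fold changes of 0.91 (± 0.07 SE, edgeR adjusted P = 7.44e-09) for TIMP1 and 0.81 (± 0.04 SE, edgeR adjusted P = 4.29e-11) for TIMP2, against siNEG. TIMP4, the least widely expressed TIMP, had 17, 9 and 12 counts in siEF, 7, 6 and 9 in siNEG and 21, 11 and 14 in media. It did not pass the test, and its fitted change differed in sign between the controls, at 1.09 (± 0.46 SE, edgeR adjusted P = 0.041) against siNEG and -0.05 (± 0.42 SE, edgeR adjusted P = 0.922) against media. SYN2 exons on the opposite strand cover 14.2% of the TIMP4 exon bases.

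To compare levels between genes, CPM were divided by the kilobases of merged exon of each gene in GENCODE release 44. By this length, the order in siNEG was TIMP1 at 33.3, MMP2 at 23.4, MMP14 at 19.1, TIMP2 at 13.7 and MMP15 at 6.56 CPM per kb, and MMP11 stood 12th of the 50 at 0.559. In siEF the order was MMP14 at 98.8 ± 2.90, MMP11 at 66.4 ± 2.40, TIMP1 at 62.7 ± 3.43, MMP2 at 60.1 ± 2.11, TIMP3 at 27.4 ± 1.16 and TIMP2 at 24.1 ± 0.351 CPM per kb (SD, n = 3 each). The libraries of TIMP1 overlapped those of both MMP11 and MMP2 on this scale, and the order of TIMP3 and TIMP2 in siEF, and that of MMP14 and TIMP2 in siNEG, turned when the longest transcript was used as the length. ADAMTS10 followed at 6.94 ± 0.432 and ADAMTS9 at 4.03 ± 0.146 CPM per kb (SD, n = 3 each).

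The makeup of the MMP level differed between siEF and both controls mainly in MMP11, MMP2 and MMP15. Summed over the 22 MMP genes, the level per kilobase was 234.8 ± 4.24 CPM per kb (SD, n = 3) in siEF, 51.6 ± 1.84 in siNEG and 49.9 ± 3.60 in media. MMP11 made up 27.4% to 29.2% of this sum in the siEF libraries and 1.02% to 1.12% in the siNEG libraries. The mean share of MMP2 was 25.6% in siEF and 45.4% in siNEG, although its own level rose. MMP15 went from 12.3% to 13.3% of the sum in siNEG to 1.34% to 1.63% in siEF, and MMP14 had a share of 40.8% to 42.9% in siEF beside 36.6% to 37.5% in siNEG. In media the share of MMP14 was 42.0% to 43.3%, which overlapped that in siEF, and the mean shares of MMP2, MMP15 and MMP11 were 37.1%, 15.4% and 1.13%. The 4 TIMP genes summed to 114.7 ± 2.91 CPM per kb (SD, n = 3) in siEF, 48.3 ± 0.912 in siNEG and 53.2 ± 4.76 in media. TIMP3 made up 22.8% to 25.6% of the TIMP sum in siEF and 1.66% to 2.37% in siNEG. These sums describe RNA and were not tested.

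**Figure D3:**
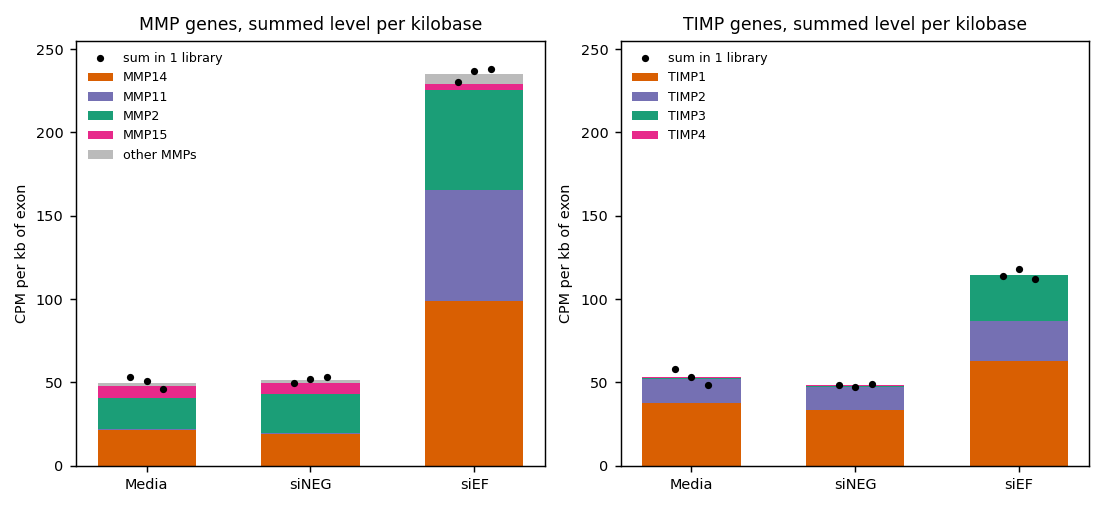
Level per kilobase of exon, in CPM per kb, stacked by gene for the MMP genes (left) and the TIMP genes (right), as group means over 3 libraries, with the sum in each library as a black point. The MMP sum was 234.8 in siEF and 51.6 in siNEG, with MMP11 and MMP14 as the largest added parts, and TIMP1 and TIMP3 were the largest added parts of the TIMP sum.

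Of the proteoglycan-cleaving ADAMTS genes, 4 were tested, of which ADAMTS15 rose and 3 were not called. ADAMTS15 had 166, 126 and 226 counts in siEF, 10, 16 and 16 in siNEG and 2, 5 and 10 in media. It rose from a siNEG level of 0.433 ± 0.104 CPM (SD, n = 3) to 6.64 ± 0.963 CPM (SD, n = 3), with a log2 fold change of 3.92 (± 0.29 SE, edgeR adjusted P = 3.13e-09). ADAMTS9, a versican-cleaving enzyme, and ADAMTS4, an aggrecanase, were at 43.0 ± 1.56 and 27.4 ± 2.42 CPM (SD, n = 3 each) in siEF and at 39.4 ± 2.75 and 24.6 ± 0.337 CPM (SD, n = 3 each) in siNEG. Their log2 fold changes of 0.13 (± 0.06 SE, edgeR adjusted P = 0.0786) and 0.15 (± 0.07 SE, edgeR adjusted P = 0.0587) did not pass. ADAMTS1 had 229, 165 and 250 counts in siEF, 228, 195 and 202 in siNEG and 323, 328 and 276 in media, so after scaling siEF lay between the controls. Its log2 fold change was 0.36 (± 0.11 SE, edgeR adjusted P = 0.00625) against siNEG and -0.29 (± 0.10 SE, edgeR adjusted P = 0.0179) against media. ADAMTS5, the other main aggrecanase, ADAMTS8 and ADAMTS20 had 3 counts or fewer in every library.

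ADAMTS10 and ADAMTS17, which associate with fibrillin microfibrils and are linked to Weill-Marchesani syndrome, were both called higher. ADAMTS10 (ENSG00000142303.14, chromosome 19, 8580240 to 8610735) had 1136, 750 and 1195 counts in siEF, 113, 140 and 155 in siNEG and 149, 123 and 135 in media. The siEF libraries were 9.39-fold higher than siNEG, without overlap, at a log2 fold change of 3.23 (± 0.11 SE, edgeR adjusted P = 1.13e-13). ADAMTS17 rested on few reads, with 20, 16 and 18 counts in siEF, 9, 4 and 7 in siNEG and 6, 6 and 15 in media. It passed the filter on low counts only with the help of its siEF libraries, which favors a call. Its log2 fold change of 1.74 (± 0.49 SE, edgeR adjusted P = 0.00466) was no longer called with DESeq2 (adjusted P = 0.0141), and neither without any 1 of the siEF libraries (adjusted P = 0.0181, 0.0171 and 0.011 without replicates 1, 2 and 3) nor without siNEG replicate 2 or 3 (adjusted P = 0.0315 and 0.0155).

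ADAMTS7, which degrades the cartilage protein COMP, had 123, 81 and 135 counts in siEF, 12, 10 and 10 in siNEG and 11, 8 and 8 in media, a log2 fold change of 3.70 (± 0.27 SE, edgeR adjusted P = 1.87e-09). Of its 9 deposited counts, 4 were not whole, and the table also holds 3 ADAMTS7 pseudogenes, with which it could share reads, so its level is uncertain. Their part in the counts was not tested. ADAMTS13, the von Willebrand factor protease, had 80, 35 and 98 counts in siEF, 30, 27 and 43 in siNEG and 17, 23 and 16 in media. After scaling, its siEF libraries lay above both controls, with a log2 fold change of 1.37 (± 0.30 SE, edgeR adjusted P = 0.000618).

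Of the ADAMTS-like genes, ADAMTSL5 had 89, 73 and 100 counts in siEF and 14, 10 and 10 in siNEG, and ADAMTSL4, whose loss displaces the lens, had 30, 30 and 45 in siEF and 18, 14 and 10 in siNEG. Both rose without overlap, by log2 fold changes of 3.26 (± 0.29 SE, edgeR adjusted P = 3.21e-08) and 1.64 (± 0.36 SE, edgeR adjusted P = 0.000614). ADAMTSL4-AS1 covers 11.4% of the ADAMTSL4 exon bases on the opposite strand. ADAMTSL3 had 16, 7 and 7 counts in siEF and 7, 18 and 1 in siNEG, a wide overlap that did not pass the test (log2 fold change 0.54, ± 0.74 SE, edgeR adjusted P = 0.524).

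The other 23 members did not pass the filter. Of these, 8 had 0 counts in every library (MMP8, MMP20, MMP26, MMP27, ADAMTS2, ADAMTS18, ADAMTS19 and ADAMTSL1), and 8 more had 3 counts or fewer in every library (MMP3, MMP7, MMP12, MMP13, MMP21, ADAMTS5, ADAMTS8 and ADAMTS20). The remaining 7 had more than 3 counts in at least 1 library. Of these, ADAMTS14, a procollagen N-proteinase, had 12, 2 and 11 counts in siEF and 0 in every siNEG library. The 95% interval of its ratio had a lower limit of 7.88. ADAMTS12 had 2, 7 and 5 counts in siEF and 0 in every siNEG library, with a lower limit of 4.15 on the same basis. ADAMTSL2 had 14, 4 and 22 counts in siEF and 0, 1 and 0 in siNEG, a ratio of 50.1 with a 95% interval of 8.49 to 2028. ADAMTS16 had 21, 5 and 15 counts in siEF and 7, 2 and 0 in siNEG, a ratio of 5.71 with an interval of 2.73 to 13.4. ADAMTS3, ADAMTS6 and MMP16 had at most 14, 7 and 5 counts in any library. These intervals and limits cover counting error only.

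The controls were also set against each other. In siNEG against media, 0 of the 27 tested members were called higher (all genes tested: 0.162%) and 0 lower (all genes tested: 0.267%) by edgeR's quasi-likelihood test, and 0 were called by DESeq2. At an unadjusted P under 0.05, 13 of the 27 differed. The share of all genes tested is not given here for this setting, nor without a cut-off on the fold change. With no cut-off on the fold change, 3 passed the adjusted P: ADAMTS9 was higher in siNEG by 0.49 on the log2 scale (± 0.06 SE, edgeR adjusted P = 5.06e-05), MMP2 was higher by 0.34 (± 0.06 SE, edgeR adjusted P = 0.000423), and ADAMTS1 was lower, with a log2 fold change of -0.66 (± 0.10 SE, edgeR adjusted P = 0.000329).

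Against media, 14 members were called higher in siEF (all genes tested: 17.4%) and 1 lower (all genes tested: 12.5%), the latter being MMP15. This comparison shares the siEF libraries with that against siNEG. MMP11 had log2 fold changes of 6.88 against media and 6.89 against siNEG, MMP14 of 2.21 and 2.37, MMP2 of 1.70 and 1.36, and TIMP3 of 5.07 and 4.77. MMP17 and ADAMTS17 were called against siNEG and not against media, where ADAMTS17 was at 1.22 (± 0.47 SE, edgeR adjusted P = 0.0291).

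Genes that act on these proteinases, and the matrix proteins they cut, were taken as 4 lists of 52 genes in all. Of 33 tested, 19 were called higher in siEF than in siNEG and 1 lower, beside 17.1% and 11.7% of all genes tested. Among the activators of zymogens and the plasminogen system, 3 of 7 tested were called higher and 0 lower. PLAU (urokinase) rose from 5.71 ± 0.714 to 94.9 ± 4.55 CPM (SD, n = 3 each), PLAT (tissue plasminogen activator) from 1.26 ± 0.321 to 17.5 ± 0.976 CPM (SD, n = 3 each), and FURIN, the convertase that activates MMP11 and MMP14, from 99.3 ± 6.09 to 260 ± 3.34 CPM (SD, n = 3 each). PLAUR, the urokinase receptor, had a log2 fold change of -0.64 (± 0.12 SE, edgeR adjusted P = 9.28e-05), short of the cut-off. Plasminogen itself (PLG) had at most 1 count in any library.

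All 8 tested genes among the other inhibitors and clearance receptors were called higher (all genes tested: 17.1%), of 11 on the list. THBS1 (thrombospondin-1) rose most, from 2.38 ± 0.714 to 170 ± 3.67 CPM (SD, n = 3 each), and was also the gene of the 4 lists called higher in siNEG than in media. PAPLN (papilin) and A2M (alpha-2-macroglobulin, which traps proteinases) had log2 fold changes of 3.86 and 3.08 (SE 0.30 and 0.20). LRP1, the endocytic receptor that clears MMP and TIMP complexes, rose by 2.45 (SE 0.06) and RECK, a membrane-bound MMP inhibitor, by 1.16 (SE 0.11) on the log2 scale.

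Among the ADAM and astacin proteinases, 2 of 8 tested were called higher (all genes tested: 17.1%) and 0 lower (all genes tested: 11.7%). These were ADAM19 at a log2 fold change of 2.51 (SE 0.10) and BMP1, the procollagen C-proteinase, at 1.58 (SE 0.07). ADAM10 and ADAM17, the main sheddases, were higher by 0.49 (SE 0.06) and 0.47 (SE 0.06), short of the cut-off. Of 10 tested substrates, 6 were called higher and 1 lower, beside the same shares of all genes tested. Whether either list differs from these shares was not tested. FBN1 (fibrillin-1, the microfibril partner of ADAMTS10) rose from 9.19 ± 2.10 to 117 ± 3.46 CPM, and BGN (biglycan) from 9.29 ± 0.741 to 84.5 ± 2.31 CPM (SD, n = 3 each). NID1 (nidogen-1) and DCN (decorin) had log2 fold changes of 2.79 (SE 0.05) and 2.62 (SE 0.35). ELN (elastin) fell from 94.0 ± 5.44 to 39.4 ± 3.05 CPM (SD, n = 3 each), a log2 fold change of -1.26 (± 0.08 SE, edgeR adjusted P = 3.94e-10). ACAN (aggrecan), COMP and VWF, substrates for which ADAMTS members are named, had at most 1, 10 and 3 counts in any library and were not tested.

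**Figure D4:**
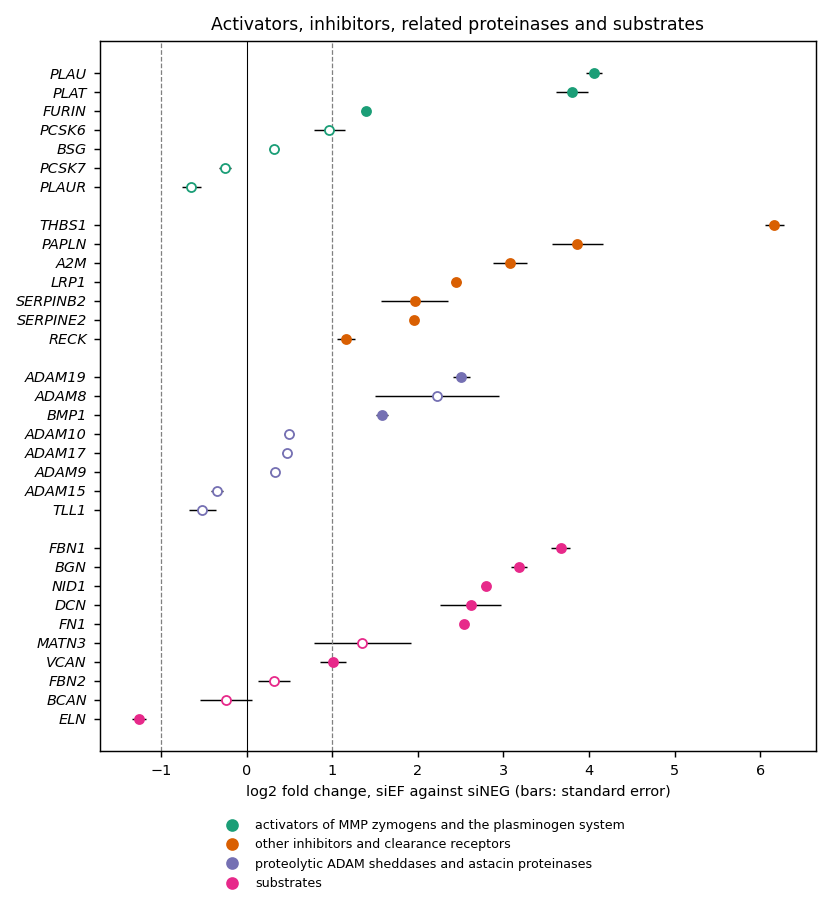
Log2 fold change of siEF against siNEG with standard errors (bars) for the tested genes of the 4 lists, of which 1 is not drawn, colored by list, filled where called and with the cut-offs dashed. The inhibitors and clearance receptors drawn all lie right of the upper cut-off, and ELN is the gene that passed the lower one.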

How the data were processed

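The authors mapped reads to hg38 with STAR and deposited expected counts per gene, estimated with RSEM, neither scaled nor pooled. The labels' processing notes also name cutadapt 2.10 and DESeq2 1.32.0. The labels give polyA RNA and a small RNA library kit, and the annotation release is not given in the sources used here. Expected counts were rounded, passed through filterByExpr (16093 genes left), given TMM factors and tested in edgeR 4.0.16 in R 4.3.3 (quasi-likelihood, 1 fit over 9 libraries, Benjamini-Hochberg adjustment over all genes). SE was taken as the fold change on the log2 scale over the root of the F statistic. No library was identical to another, and chi-square per degree of freedom within groups was 3.57 to 23.2. The fit was tested on simulated data. All 50 members matched GENCODE release 44.

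The members and lists were chosen with earlier results of these data known. Named with values were all called members, the tested TIMPs, MMP2, MMP9 and MMP14, and up to 4 called genes per list and direction. The other members, LRP1 and RECK beyond that limit, and list genes short of a call were added after their values were seen. Of the list genes, 1 is counted and otherwise not reported here. Alternatives were DESeq2 1.42.0, other scalings, filters, cut-offs and gene lengths, 6 libraries only, a replicate block and each library left out.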

Additional observations from a re-analysis of the deposited data

How the results depend on the processing

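Of 418 values of the siEF to siNEG change of single members under the alternatives, 410 kept direction and side of the cut-offs, 6 (all ADAMTS17) lost the call, 2 (MMP9 and MMP15) gained it and none changed sign. With at least 10 counts in every library, 8 members in place of 16 were higher against siNEG and 7 in place of 14 against media, by construction, since fewer were tested. With each library left out, 0 to 1 members were lower against siNEG. With no cut-off on the fold change, 1 member was lower against siNEG, 3 differed between siNEG and media, and 5 list genes in place of 1 were lower. The shares of all genes tested at this setting are not given here. With the replicate number as a block, 16 members were higher and 0 lower in siEF against siNEG, and no count moved by over 1.5 times. Libraries of the same number correlated at 0.02, -0.05 and -0.11 in their deviations from the group means (siEF and siNEG), so the numbers were not taken as pairs. With the longest transcript as length, levels in siEF were 118.6 for MMP14, 89.5 for MMP11, 80.4 for MMP2, 82.8 for TIMP1 and 41.0 CPM per kb for TIMP2. Depth limits members under about 10 counts, where 1 read moves a value.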
